A study of Homo sapiens with 10 samples.

Results

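The response described here is that of A549 cells to any estrogen, read only through genes that the array measures more than once. A549 is an established line from a lung adenocarcinoma, and 5 of the 10 arrays of the study carry its RNA. Members were the genes with 2 or more probe sets that name that gene alone and whose mean intensity over the 5 A549 arrays was 20 or more. This left 5934 of the 19775 genes with a 1-gene probe set, measured by 15824 probe sets. A gene's value was the median over its usable probe sets of log2(intensity + 16), taken on each array by itself. With 2 probe sets both weigh equally, and with 3 or more of unlike brightness a single probe set that jumps can be the middle one and set the gene value. TIMM17A of the mitochondrial import machinery shows this, as its probe sets differed by 3.27, -0.16 and 0.00 while its gene value went from 68.2 on the vehicle array to between 770.5 and 850 on the others. Of 217 genes with 3 or more probe sets and a value at least 1.5-fold from the vehicle, 153 had at most 1 probe set that far in the same direction. A total of 3457 genes had 2 usable probe sets and 2477 had 3 or more, up to 13.

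The study measured RNA on Affymetrix human expression arrays in A549 and in HTB-182, another non-small cell lung cancer line, with 1 array for each line and treatment. Charcoal-stripped serum replaced the usual serum for 4 h, after which the cells were exposed for 3 h. The 5 treatments were 0.1% ethanol as vehicle, 1 µM estradiol (E2), E2 with 10 µM tamoxifen (TAM), 1 µM estradiol coupled to bovine serum albumin (E2-BSA), and E2-BSA with 10 µM tamoxifen. The titles of the E2 with tamoxifen arrays name tamoxifen alone, and their source descriptions name both. For A549 the source entries read A549-182, and the cell line entries read A549. No separate cultures are stated. Here the 4 estrogen arrays of A549 form one arm against its single vehicle array, so all p-values measure the spread between 4 arrays of unlike treatment and assume that the lone vehicle array varies like them. The small number of arrays limits the precision.

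Estradiol acts through the nuclear receptors ESR1 and ESR2, which bind DNA at estrogen response elements or join other factors there, and through the membrane receptor GPER1, which signals through cyclic AMP and kinases. E2-BSA is too large to enter cells readily and is used to address receptors at the surface. Tamoxifen binds the nuclear receptors and blocks or partly activates them depending on the tissue. Within hours, estrogen is known to raise genes such as PGR and GREB1 in breast cells with abundant ESR1.

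The receptors themselves could not be tested by this rule. ESR1, ESR2 and GPER1 had 1 usable probe set each and PGR had none. The usable ESR1 probe set read 26.6 on the vehicle array and 19.9, 26.2, 20.8 and 21.2 on the E2, E2 with tamoxifen, E2-BSA and E2-BSA with tamoxifen arrays. That of ESR2 read 43.8 on the vehicle array and 19.3 to 29.1 on the estrogen arrays. The GPER1 probe set read 24.5 on the vehicle array and 19.1 to 29.6 on the others, on both sides of the vehicle. The 2 PGR probe sets lay between 3.52 and 6.16 on every A549 array. The readings of the 3 receptor probe sets lie near the minimum of the filter, and those of PGR lie below it.

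The A549 arrays carried the genes known for this line. The keratin KRT18 had a median of 8987 over the 5 arrays, KRT7 3179, the aldo-keto reductase AKR1B10 12324 and the aldehyde dehydrogenase ALDH1A1 12054. The alveolar factor NKX2-1 at 17.3 and the surfactant protein SFTPD at 13.8 were below the filter. Of 12 squamous markers 4 reached 20, and the list summed to 291 on the vehicle array and 361 to 414 on the estrogen arrays. The sums took a single probe set per marker, and that of SOX2 read 36.1 on the vehicle array and 131 to 192 on the others. The other usable SOX2 probe sets differed by -0.26 and -0.08, so the higher squamous sum is not borne out by them. Of 11 blood and endothelial markers 4 reached 20 with a sum of 325 against 239 to 323. The alveolar and adenocarcinoma markers summed to 47553 against 49749 to 51007. Of 15 mesenchymal and fibroblast markers 10 reached 20, and the list summed to 14071 against 12447 to 14117. Among them VIM had a median of 4725 and FN1 of 6625. Of 10 neuroendocrine markers 5 reached 20, with a sum of 3866 against 2957 to 3885 and UCHL1 at a median of 2818. The part of these small shifts in the results was not tested.

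The vehicle array stood apart from the other 4 in several poly-A control probe sets. The poly-A controls are bacterial transcripts added to the RNA before labelling, and the probe set for the middle of the dap transcript read 51.4 on the vehicle array and 371 to 604 on the estrogen arrays. The dap probe set nearer the 3′ end read 452 against 743 to 1091, and the middle probe set of the phe control 13.2 against 31.2 to 48.9. The vehicle array was therefore low on each of these, most of all on the middle of dap. It was not low on every control. The thr probe set read 147, inside the 124 to 215 of the estrogen arrays, and the hybridization controls bioB and bioC were highest on the vehicle array, at 330 against 236 to 293 and 1264 against 903 to 1191. Its median intensity over all probe sets was 21.4 against 17.9 to 19.4. For the ACTB transcript the 3′ probe set exceeded the 5′ one by 1.71 on the log2 scale on the vehicle array, inside the 1.41 to 1.84 of the estrogen arrays, and for GAPDH the excess of 3′ over middle was 0.06 against 0.14 to 0.31. Vehicle array and vehicle treatment cannot be told apart in this design, and the part of these values in the differences below was not tested.

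**Figure D1:**
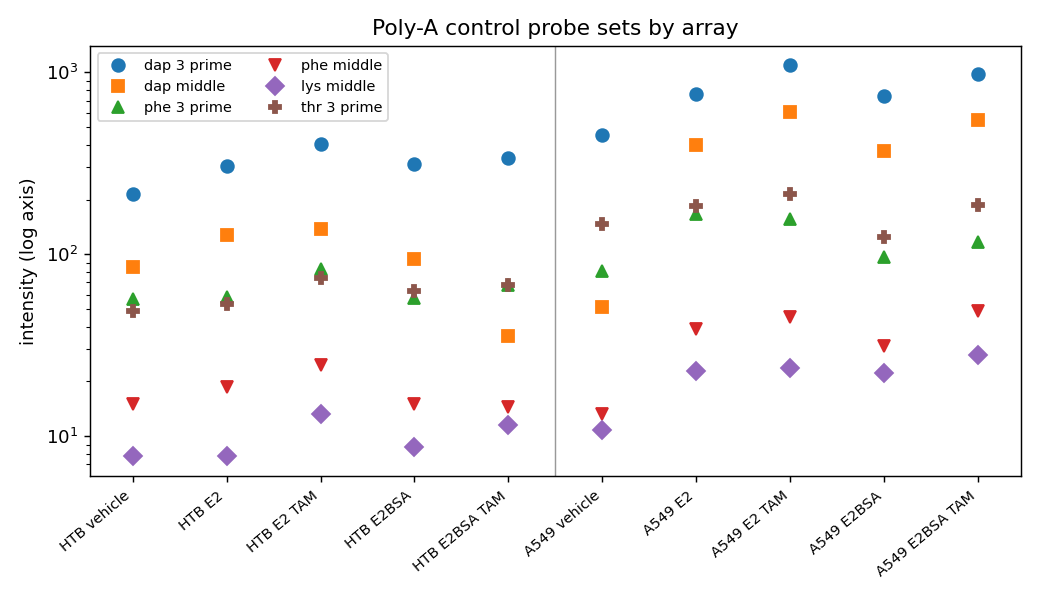
Intensity (log axis) of 6 poly-A control probe sets on each of the 10 arrays, 1 array per group, with HTB-182 on the left and A549 on the right. The middle dap probe set reads 51.4 on the A549 vehicle array and 371 to 604 on the other A549 arrays.

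Across the 5934 genes the estrogen arrays lay mostly below the vehicle array. The median difference was -0.13 on the log2 scale, with 4016 genes lower and 1918 higher, and by array it was -0.05 for E2, -0.13 for E2 with tamoxifen, -0.17 for E2-BSA and -0.16 for E2-BSA with tamoxifen. The E2 array thus lay closest to the vehicle. This general shift depended on the scaling, as the median became -0.02 after quantile normalization and 0.04 after scaling each array to its median intensity. Differences are given as deposited, and where a direction turns on that shift the value relative to the median gene is given too. The median size of a difference, whatever its sign, was 0.22 in A549 and 0.07 in HTB-182, where the median difference was 0.01.

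With limma's moderated test and Benjamini-Hochberg adjustment at 0.05, 152 genes rose (2.56% of those tested) and 105 fell (1.77%), and 1695 had an unadjusted p under 0.05. Asking also that all 4 estrogen arrays and every usable probe set lie on the same side of the vehicle left 70 higher genes (1.18%) and 92 lower genes (1.55%). A rule of size alone, at least 1.5-fold with the same agreement, gave 105 higher (1.77%) and 129 lower (2.17%). Scaling moved this split widely. Of the genes past the limma threshold 59.1% were higher as deposited, 74.0% after quantile normalization (253 higher, 89 lower) and 95.0% after median scaling (265 higher, 14 lower). Of the genes past the 1.5-fold rule the higher share was 44.9%, 82.1% and 95.7% in the same order. The counts also turned on single arrays, as leaving out the E2 array gave 576 higher and 1694 lower by limma, while leaving out the E2-BSA with tamoxifen array gave 57 and 2, the E2 with tamoxifen array 94 and 19, and the E2-BSA array 96 and 11.

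Taken 1 array at a time against the vehicle, with the same 1.5-fold rule and no test, the E2 array had 126 higher genes (2.12%) and 56 lower (0.944%). E2 with tamoxifen had 114 higher (1.92%) and 184 lower (3.1%), E2-BSA 129 (2.17%) and 341 (5.75%), and E2-BSA with tamoxifen 157 (2.65%) and 345 (5.81%). Higher genes were similar in number on all 4 arrays, and lower genes were fewest on the E2 array. These comparisons share the vehicle array. In 75 genes the vehicle array lay at least 2-fold below the log2 average of the 4 estrogen arrays and in 2 at least 2-fold above, and for each estrogen array against its own remaining 4 these counts were between 0 and 3.

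Of the genes that rose, NCAPG changed most among those whose probe sets agreed. NCAPG, a subunit of the condensin I complex that compacts chromosomes in mitosis, read 30.3 on the vehicle array and 199, 183, 223 and 230 on the E2, E2 with tamoxifen, E2-BSA and E2-BSA with tamoxifen arrays. All 4 estrogen arrays were several times the vehicle and close to each other. The log2 difference was 2.28 (SE 0.15, adjusted p = 0.000532). Both of its probe sets were higher, by 1.51 and 3.04, and the latter read 7.64 on the vehicle array and 166 to 190 on the others. This probe set passed the minimum of 20 only through the estrogen arrays, and without it NCAPG would have had 1 usable probe set and no test. Of the 70 higher genes with agreeing probe sets 12 had a usable probe set under 20 on the vehicle array, and 8 had fewer than 2 usable ones without it. Of the 92 lower genes 11 had a probe set whose mean over the estrogen arrays was under 20, and 7 had fewer than 2 without it. MRPL50, a protein of the large mitochondrial ribosomal subunit, read 125 on the vehicle array and 408, 412, 582 and 562 on the estrogen arrays in the same order. Its 2 probe sets differed by 1.70 and 1.97, and its difference was 1.83 (SE 0.22, adjusted p = 0.0063). FGB, the beta chain of fibrinogen and a secreted product of A549, read 638 on the vehicle array and 1852, 1914, 1537 and 1652 on the others, a difference of 1.42 (SE 0.14, adjusted p = 0.00337). Its probe sets were unequal, at 0.62 for the brighter (2175 on the vehicle array, 2962 to 3793 on the others) and 2.21 for the dimmer (179 against 716 to 1156).

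ZFP36L1, an RNA-binding protein that hastens the decay of AU-rich messages and an early growth factor response gene, read 112 on the vehicle array and 338, 306, 256 and 285 on the estrogen arrays. All 4 lay above the vehicle and the difference was 1.28 (SE 0.16, adjusted p = 0.00946), with probe sets at 0.77 and 1.78. DPY19L1, a mannosyltransferase-like membrane protein, read 163 against 468, 456, 393 and 409, a difference of 1.32 (SE 0.14, adjusted p = 0.00401), with probe sets at 0.61 and 2.03. The ZFP36L1 probe sets ranked the estrogen arrays differently. The brighter read 389 on the vehicle array and 918, 1703, 1556 and 1486 on the estrogen arrays, lowest with E2, and the dimmer 24.7 against 118, 44.5, 31.0 and 44.4, highest with E2. Without the E2 array the dimmer one differed by 0.45, under 1.5-fold. The weaker probe set of DPY19L1 read 578 against 927, 965, 826 and 843.

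The promoters of the gene with the greatest rise and of the early response gene are shown because the cyclic AMP response element lies in one of them. Each is the 250 bases before the RefSeq start (build GRCh38.p14), 5′ to 3′ on the strand of the gene, with any motif found in capitals.
NCAPG, chr4:17810729-17810978, plus strand: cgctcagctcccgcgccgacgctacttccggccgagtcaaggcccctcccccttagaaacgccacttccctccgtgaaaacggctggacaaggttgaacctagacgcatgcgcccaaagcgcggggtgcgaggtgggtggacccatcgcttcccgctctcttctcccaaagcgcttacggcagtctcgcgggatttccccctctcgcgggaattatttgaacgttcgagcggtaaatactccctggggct
ZFP36L1, chr14:68793417-68793666, minus strand: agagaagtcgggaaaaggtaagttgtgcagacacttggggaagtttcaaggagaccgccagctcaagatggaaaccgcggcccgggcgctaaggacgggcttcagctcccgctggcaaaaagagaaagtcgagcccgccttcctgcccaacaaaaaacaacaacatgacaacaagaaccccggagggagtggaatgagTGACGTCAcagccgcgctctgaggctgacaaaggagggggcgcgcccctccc
The capitals in ZFP36L1 mark TGACGTCA, the cyclic AMP response element, and the NCAPG stretch holds none of the motifs searched.

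The other named genes that rose rested on unequal probe sets. ZNF24, a zinc-finger repressor, read 61.3 on the vehicle array and 329, 240, 231 and 265 on the estrogen arrays. Its difference was 1.86 (SE 0.19, adjusted p = 0.0034) and its 3 probe sets ran from 0.05 to 2.40. PTPN11, the phosphatase SHP2 that relays growth factor signals to ERK, read 32.1 against 217, 129, 120 and 137. Its difference was 1.76 (SE 0.27, adjusted p = 0.014). The brightest of its 4 probe sets read 1622 on the vehicle array and 1730 to 2676 on the others, a difference of 0.51, and a dim one carried 2.66. RNF14, a ubiquitin ligase and androgen receptor coactivator, had probe sets at 0.30 and 2.89 around a difference of 1.59 (SE 0.14, adjusted p = 0.00219). NEMF, a factor of ribosome quality control, had 4 probe sets from 0.33 to 2.38 around 1.48 (SE 0.15, adjusted p = 0.00337).

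The weakest support was for PPTC7 and BAG4. PPTC7, a mitochondrial phosphatase, rose by 1.25 (SE 0.13, adjusted p = 0.0034), but one of its probe sets read 242 on the vehicle array and 215 to 307 on the estrogen arrays, on both sides of it, and the other 117 against 586 to 810. BAG4, which binds HSP70 and death receptors, rose by 1.23 (SE 0.13, adjusted p = 0.0034), with one probe set at 48.9 against 44.0 to 62.9 and the other at 85.6 against 412 to 609. In both genes a single probe set made nearly all of the difference. MINDY2, a deubiquitinase, lay between, with probe sets from 0.12 to 1.90 and a difference of 1.35 (SE 0.27, adjusted p = 0.0354).

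**Figure D2:**
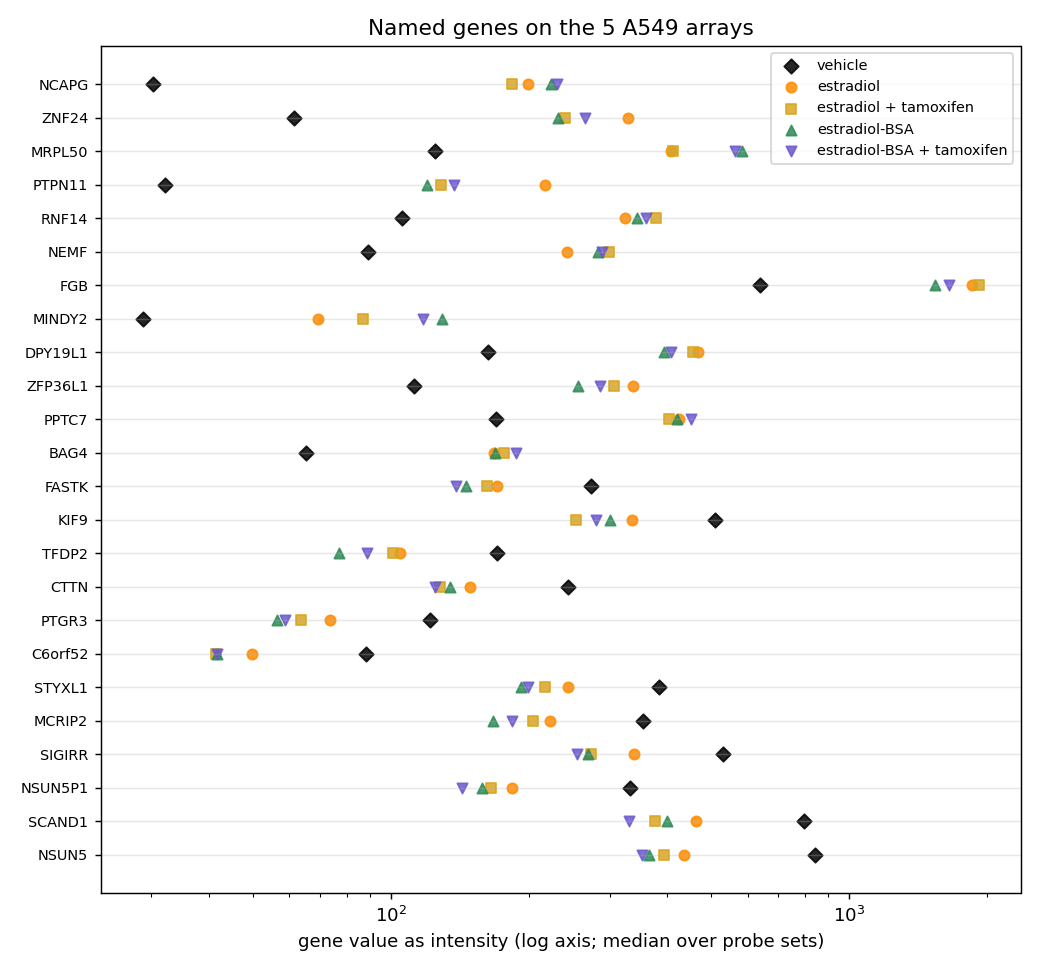
Gene values as intensity (log axis) on the 5 A549 arrays for the 12 higher and 12 lower genes of largest difference past the limma threshold with agreeing arrays and probe sets, 1 point per array. The choice of genes puts the vehicle array outside the 4 estrogen arrays in every row, as for NCAPG at 30.3 against 183 to 230 and NSUN5 at 840 against 352 to 436.

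Among the 70 higher genes of this kind, 13 had every probe set at least 1.5-fold above the vehicle, and in 18 the weakest probe set differed by under 0.1 on the log2 scale. In the 92 lower genes these counts were 20 and 9. The distance between a gene's highest and lowest probe set had a median of 1.11 in the higher genes, 0.33 in the lower genes and 0.38 over all genes tested. Higher genes thus rested on unequal probe sets more than lower genes did, although 50 of the 70 and 56 of the 92 had 2 probe sets, where the median is the mean. Of all 152 genes that rose by limma, 82 had a probe set on the other side of the vehicle, and of the 105 that fell 13 did. Over the 5934 genes 50.2% had probe sets of a single sign.

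**Figure D3:**
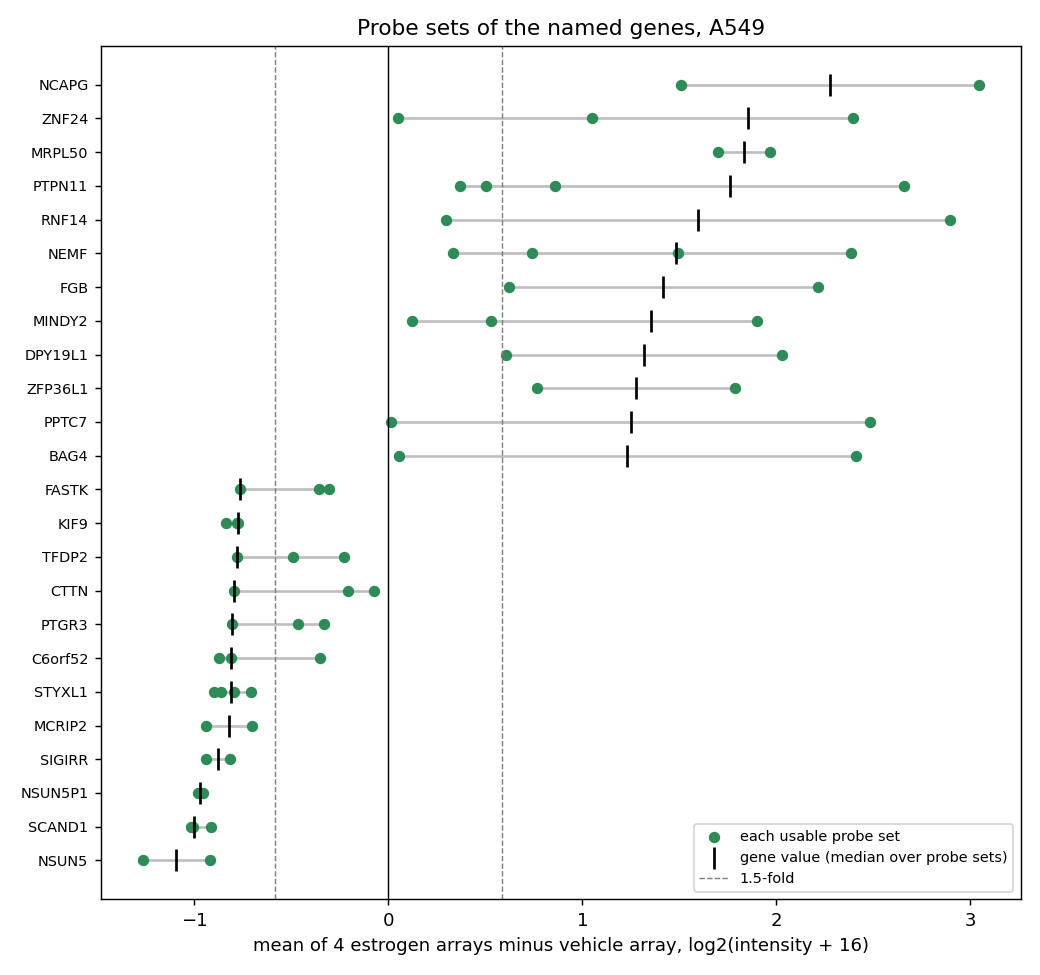
Difference of the mean of the 4 estrogen arrays from the vehicle array (log2 scale) for each usable probe set (points) and for the gene value (bars) of the same 24 genes in A549, with dashed lines at 1.5-fold. Probe sets of lower genes such as NSUN5P1 lie together, while those of BAG4 run from 0.06 to 2.41.

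What the probe check left out was large. Of 15824 usable probe sets 362 differed at least 2-fold from the vehicle, 354 higher and 8 lower, and 168 of them, in 162 genes, belonged to genes whose own value differed by less than 1.5-fold. A probe set of NTRK3, a neurotrophin receptor, read 26.1 on the vehicle array and 512 to 628 on the others, while the gene value differed by 0.06. One of PPP6C, a catalytic phosphatase subunit, read 31.5 against 450 to 481 at a gene difference of 0.43. One of AKAP13, a kinase anchor, read 34.1 against 309 to 539 at a gene difference of -0.04. In each of these the gene value did not follow the jump. The 6900 genes with exactly 1 usable probe set cannot be checked this way, and 114 of them were at least 2-fold higher and 10 lower. FUNDC1, a mitophagy receptor, led them at 34.6 against 473 to 535, followed by MOB1B, MORN2, TAF13 and RBP4.

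A further rule, chosen after the data were seen, asked each usable probe set by itself to pass 1.5-fold in its mean difference. It used no test and left 19 higher genes (0.32%) and 33 lower genes (0.556%). NCAPG, MRPL50, FGB, DPY19L1 and ZFP36L1 were among the former. With each estrogen array left out in turn, 12 of the 19 and 17 of the 33 passed every time, and ZFP36L1, FGB, DPY19L1, PIGO, RBM3, PSPH and BLZF1 of the higher genes did not. NCAPG, NABP1 and SEMA3A each had a probe set under 20 on the vehicle array, so they entered through the estrogen arrays. CHD1, a chromatin remodeller that travels with RNA polymerase, read 165 on the vehicle array and 430, 395, 376 and 381 on the estrogen arrays, and rose by 1.18 (SE 0.13, adjusted p = 0.00466). COL5A2, a fibrillar collagen chain, read 1022 against 1991, 2208, 2320 and 2307 and rose by 1.09 (SE 0.12, adjusted p = 0.00374). CSGALNACT2, which starts chondroitin sulfate chains, had probe sets at 1.07 and 1.11 and rose by 1.09 (SE 0.18, adjusted p = 0.0196). PIGO of the GPI anchor pathway (1.02), the ribosome assembly factor NIP7 (1.01), the Golgi protein SCOC (0.94), the valine catabolic enzyme HIBCH (0.71) and the cold-inducible RNA-binding protein RBM3 (0.60) also rose.

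In 6 of these 19 genes the size was there but the limma threshold was not reached. EIF4E, the cap-binding initiation factor, read 275 on the vehicle array and 288 on the E2 array, but 862, 917 and 972 on the other 3. Its difference of 1.27 had an SE of 0.57 (adjusted p = 0.183), as the E2 array lay beside the vehicle. That closeness was not in every probe set. One read 275 on the vehicle array and 288 with E2, but in the others E2 read 912 against 534 and 129 against 94.9. CAVIN1, the coat protein of caveolae, read 45.9 on the vehicle array and 167, 67.0, 107 and 129 on the others, a difference of 1.05 (SE 0.35, adjusted p = 0.104). Its 3 probe sets differed by 0.71, 0.80 and 0.86, less than the gene value, because different probe sets were the middle one on different arrays. The probe set at 0.86 read 43.4 on the vehicle array and 45.9 on the E2-BSA array, so it hardly rose there. NABP1 of the DNA damage response (1.28), the guidance cue SEMA3A (0.90), the serine synthesis enzyme PSPH (0.79) and the Golgi protein BLZF1 (0.60) made up the rest. One SEMA3A probe set read 63.5 on the vehicle array and 55.5 with E2 and tamoxifen, below the vehicle.

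The largest fall was in NSUN5, a methyltransferase of ribosomal RNA. It read 840 on the vehicle array and 436, 393, 366 and 352 on the E2, E2 with tamoxifen, E2-BSA and E2-BSA with tamoxifen arrays. All 4 estrogen arrays lay far below the vehicle, the E2 array the highest of them. NSUN5 fell by 1.09 on the log2 scale (SE 0.15, adjusted p = 0.0101), and by 0.96 relative to the median gene. NSUN5P1, its pseudogene, read 332 against 184, 165, 158 and 143 and fell by 0.97 (SE 0.15, adjusted p = 0.0172). NSUN5 and NSUN5P1 are near-identical copies, so their probe sets may share signal and the pair is uncertain as 2 separate changes. SCAND1, a SCAN domain protein, read 797 against 463, 377, 399 and 330 and fell by 1.00 (SE 0.18, adjusted p = 0.0243), with its 3 probe sets between -1.02 and -0.92.

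The other named falls were smaller. SIGIRR, a brake on interleukin-1 and Toll-like receptor signalling, read 531 on the vehicle array and 340, 273, 269 and 254 on the estrogen arrays, and fell by 0.88 (SE 0.17, adjusted p = 0.0339). MCRIP2, a stress granule protein, read 354 against 222, 204, 167 and 183 and fell by 0.82 (SE 0.17, adjusted p = 0.0372). STYXL1, a catalytically dead phosphatase, had all of its 4 probe sets between -0.90 and -0.71 and fell by 0.81 (SE 0.16, adjusted p = 0.0324). KIF9, a kinesin, fell by 0.77 (SE 0.16, adjusted p = 0.0426) with 3 probe sets between -0.84 and -0.77. In these 4 genes the probe sets lay close together. By their suffix, all probe sets of STYXL1 and KIF9 may match several transcripts or genes. The same holds for NSUN5, NSUN5P1 and SCAND1. Probe sets of this kind may share signal, so their closeness is not independent support. The remaining named falls, C6orf52 (-0.81), PTGR3 (-0.81), the actin regulator CTTN (-0.79), the E2F partner TFDP2 (-0.78) and FASTK (-0.77), each had a probe set at -0.35 or nearer to 0, and for CTTN it was at -0.07.

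The direction of the falls was kept under every scaling, but their test was not. All 12 named falls stayed past the threshold after quantile normalization, and after median scaling 4 did, namely NSUN5, SCAND1, NSUN5P1 and C6orf52. Leaving out the E2-BSA with tamoxifen array left 1 of the 12 past the threshold, NSUN5, and leaving out the E2-BSA or the E2 with tamoxifen array left 3 in each case. Without probe sets that may match several transcripts or genes, by their suffix, 3 of the 12 falls could be tested. SIGIRR stayed past the threshold, and CTTN and PTGR3 did not. Of the 12 named rises all stayed past the threshold under both scalings, and MINDY2 was the single one lost when the E2 with tamoxifen or the E2-BSA with tamoxifen array was left out. The filter and the probe set summary mattered more. A minimum intensity of 10 kept 9 rises and 8 falls, and lost the rises BAG4, PTPN11 and ZFP36L1. No minimum kept 7 and 9, and also lost the rises DPY19L1 and ZNF24. The brightest probe set, by the mean over the 5 A549 arrays, kept 9 and 8, and lost the rises NEMF, PTPN11 and RNF14. Over all settings ZFP36L1 and DPY19L1 went as low as 0.23.

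The 33 genes lower in every probe set held smaller falls too. ISG20, an interferon-induced exonuclease, read 223 on the vehicle array and 127, 121, 133 and 118 on the estrogen arrays, which lay close together, and fell by 0.76 (SE 0.13, adjusted p = 0.0211). NLRX1, a mitochondrial NOD-like receptor, fell by 0.74 (SE 0.16, adjusted p = 0.0457), and the interferon regulatory factor IRF5 fell by 0.61 (SE 0.12, adjusted p = 0.0366) from 64.5 to between 32.7 and 41.2. One of the 2 IRF5 probe sets read 37.3 on the vehicle array and 17.0 to 22.2 on the estrogen arrays. It passed the minimum of 20 through the vehicle array, and without it IRF5 would not have been tested. IKBKG, the NEMO subunit of the IκB kinase, had a difference of -0.68 that missed the threshold (adjusted p = 0.0674). PINK1, the mitophagy kinase, fell by 0.71 (SE 0.14, adjusted p = 0.0339), reading 177 against 113, 105, 99.1 and 92.3. RUVBL2, an ATPase of chromatin remodelling complexes, fell by 0.71 from 2591 to between 1411 and 1813, the tubulin deacetylase HDAC6 by 0.73 and the Polycomb protein PHC1 by 0.65. The DNA methyltransferase DNMT3A at -0.65 and the LIM-binding LDB1 at -0.72 did not reach the threshold. IRF5, IKBKG, RUVBL2 and PHC1 did not keep every probe set past 1.5-fold when each estrogen array was left out in turn. The members were not chosen for function, and no enrichment was tested.

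The promoters of the gene with the largest fall and of the interferon-induced one are shown because a motif was found in each, in the same form as above.
NSUN5, chr7:73308827-73309076, minus strand: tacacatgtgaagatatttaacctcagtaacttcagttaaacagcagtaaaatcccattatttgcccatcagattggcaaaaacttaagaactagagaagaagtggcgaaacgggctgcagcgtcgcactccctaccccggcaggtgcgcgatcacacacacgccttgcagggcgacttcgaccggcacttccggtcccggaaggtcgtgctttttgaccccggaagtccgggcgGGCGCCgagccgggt
ISG20, chr15:88638766-88639015, plus strand: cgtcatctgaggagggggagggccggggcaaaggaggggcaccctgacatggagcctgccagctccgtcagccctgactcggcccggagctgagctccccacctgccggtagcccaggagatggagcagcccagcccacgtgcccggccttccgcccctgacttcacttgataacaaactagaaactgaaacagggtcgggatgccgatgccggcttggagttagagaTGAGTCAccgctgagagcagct
The capitals mark GGCGCC, an element bound by BMP-activated SMAD proteins, in NSUN5, and a match to the AP-1 site TGANTCA in ISG20.

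Promoter sequences of 300 bases, 250 before to 50 after the start, were held for 45 of the 52 genes and for 4932 of the 5934. Both strands were searched. The full palindromic estrogen response element was in none of the 15 higher, 30 lower or 4932 background promoters. TGACGTCA was in 1 of the 15 higher (6.67%), ZFP36L1, in 0 of the 30 lower and in 3.18% of all. TGANTCA was in 0 of the 15 and in 3 of the 30 (10%), CCDC22, IKBKG and ISG20, against 4.48% of all. By limma with agreeing probe sets, 54 higher and 77 lower genes had promoters. TGACGTCA was in 3.7% and 1.3% of these, and TGANTCA in 3.7% and 7.79%. GGCGCC, a common sequence in GC-rich promoters, was in 26.7% of the higher, 30% of the lower and 32% of all promoters, GTCTAGAC was in none of either group, and the serum response element in 0.0608% of all. The median GC content was 61.7% in the higher, 66.3% in the lower and 66% in all promoters. A match is a description of the letters in this window. Among the 45 promoters the counts for TGACGTCA and TGANTCA rest on 1 and 3.

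The medians of the pathway lists with 5 or more tested members ran from -0.51 to 0.15, against -0.13 over all genes. The lowest was that of 5 tested histone genes. H2AJ, a histone H2A variant, fell by 0.86 (SE 0.15, adjusted p = 0.0243), while H2BC5 at -0.59 (adjusted p = 0.112) and H2AX at -0.51 (adjusted p = 0.0593) missed the threshold, and H2AZ1 and MACROH2A1 lay above 0. The bright probe sets of H2AJ were at -0.74 and -0.86 from 1838 and 1568 on the vehicle array, and the one at 0.09 read 18.3 to 23.8. By their suffix, these bright probe sets and those of H2BC5 may match several transcripts or genes. They may share signal, so the histone falls are uncertain as separate changes. Of 34 classical estrogen targets 11 could be tested, 4 were above and 7 below 0, and their median was -0.08. Over all genes tested 1918 were above and 4016 below 0. NRIP1, a corepressor induced by estrogen in breast cells, was the single target past the limma threshold. It read 601 on the vehicle array and 846, 1059, 1086 and 1010 on the others, a difference of 0.71 (SE 0.15, adjusted p = 0.0447), but its probe sets were at -0.06 and 1.49. The cyclin CCND1 read 537 against 870, 743, 657 and 662, and its difference of 0.43 missed the threshold (adjusted p = 0.149). Among 15 tested receptor partners the median was 0.15, with CAV2 at 0.84 (adjusted p = 0.073) and the coactivator NCOA1 at -0.66 (adjusted p = 0.0985). CAV2 and CAVIN1 were the 2 of 10 tested caveolar and flotillin genes past 1.5-fold, against 1.77% of all genes higher by that rule, and 0 of the 10 passed the limma test.

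Early response and stress genes moved singly. By limma with agreeing probe sets 1.18% of all genes were higher and 1.55% lower. Of 16 tested immediate early genes ZFP36L1 rose with agreeing probe sets, and MAFF, a small Maf protein, fell by 0.50 (SE 0.11, adjusted p = 0.0479), reading 71.7 on the vehicle array and 48.4, 43.9, 47.8 and 44.9 on the others. FOSL2, an AP-1 subunit, passed the test at 0.93, but with a probe set at -0.31. Of 14 tested genes of the integrated stress response TRIB3, a pseudokinase that restrains ATF4, fell by 0.64 (SE 0.13, adjusted p = 0.035), reading 179 against 103, 115, 105 and 111. CEBPG in the same list passed the test at 1.20, with one probe set at 381 on the vehicle array and 336 to 412 on the others, and another at 57.9 against 325 to 467. DERL3, of the degradation of misfolded proteins, fell by 0.65 (SE 0.12, adjusted p = 0.0298) from 47.7 to between 22.3 and 29.6. Its probe sets were at -0.23, -0.18 and -0.91, and the last read 50.2 on the vehicle array and 18.3 to 19.8 on the others. The middle probe set on the vehicle array was not the middle one on the estrogen arrays. DNAJB9 of the same list of 13 was at 0.75 without passing the test (adjusted p = 0.0927). The medians of these lists were -0.04, -0.09 and 0.07, against -0.13 over all genes.

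The BMP and SMAD genes past the test had probe sets of both signs. ID2, an inhibitor of differentiation factors and a direct BMP target, passed the test at 1.66 (SE 0.30, adjusted p = 0.0246), but one probe set read 341 on the vehicle array and 196 to 339 on the estrogen arrays, and the other 39.4 against 491 to 901. The probe set that was brighter on the vehicle array thus went the opposite way from the gene value. SMAD5, which carries the BMP signal, passed at 0.69 with 5 probe sets from -0.56 to 3.80. ID1 had 1 probe set on the array and was not tested, and read 2968 on the vehicle array, 2442 and 2393 with E2 and with E2 and tamoxifen, and 1418 and 1351 with the E2-BSA arrays.

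Splicing factors were the list with the most limma calls without support. Of 31 tested members 4 rose by the test, against 2.56% of all genes, SON (1.91), SRSF11 (1.07), RBM25 (1.07) and HNRNPD (0.99), and each of the 4 had a probe set below the vehicle, so 0 met the agreement rule. Their list median was -0.03. SON, a scaffold of nuclear speckles, had 5 probe sets from -0.55 to 2.92. Other single calls were the glucose transporter SLC2A3 among 14 hypoxia and glycolysis genes, at 0.89 (SE 0.12, adjusted p = 0.0101) from 62.7 to between 127 and 135 with a weakest probe set at 0.01, and the sterol isomerase EBP, the phosphatase PPM1D and the kinase LATS2, which passed the test with a probe set of the other sign. The death receptor TNFRSF10B passed at -0.81, but its brightest probe set, at 1764 on the vehicle array, differed by -0.05, and another by 0.18. CXCL5, a neutrophil chemokine, was at 1.48 without passing (adjusted p = 0.183), as the E2 with tamoxifen array at 382 lay beside the vehicle at 362 and the others at 1211 to 1587. Here too this came from 1 probe set, at 62.7 on the vehicle array and 43.6 with E2 and tamoxifen, while the brighter read 1799 and 2645.

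In 3 more lists 1 member each passed the test with agreeing probe sets, ISG20 of 5 interferon-stimulated genes, CHD1 of 32 chromatin regulators of long transcripts and FGB of 7 alveolar and adenocarcinoma markers, all described above. By that rule 1.18% of all genes were higher and 1.55% lower. The cell cycle lists had no such member. Among 17 genes of the G1/S transition and replication the median was -0.11 and among 14 G2/M genes -0.13, with the helicase subunits MCM4 at 0.64 (adjusted p = 0.0853), MCM5 at -0.55 (adjusted p = 0.105) and MCM7 at -0.58 (adjusted p = 0.0937), and the kinesin KIF2C at -0.51 (adjusted p = 0.134). Of 18 apoptosis regulators 13 were below 0, as were 4016 of all 5934 genes tested. BAX read 0.12 from probe sets at -0.60 and 0.85, and the 4 usable probe sets of the death receptor FAS ran from -0.72 to 1.80, so neither gene had a settled direction. NRF2 targets, abundant in A549, had a median of 0.05, with GCLM at 0.58 (adjusted p = 0.213) and NQO1 at 0.30 (adjusted p = 0.0593). The 14 proteasome genes (-0.18), 16 respiratory chain genes (-0.14) and 18 autophagy and lysosome genes (-0.15) lay close to the median of all genes. ABCD4, at 43.5 on the vehicle array and 89.7 to 102 on the others, and ATG16L1, at 49.9 against 84.0 to 151, had 1 usable probe set each and were not tested.

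**Figure D4:**
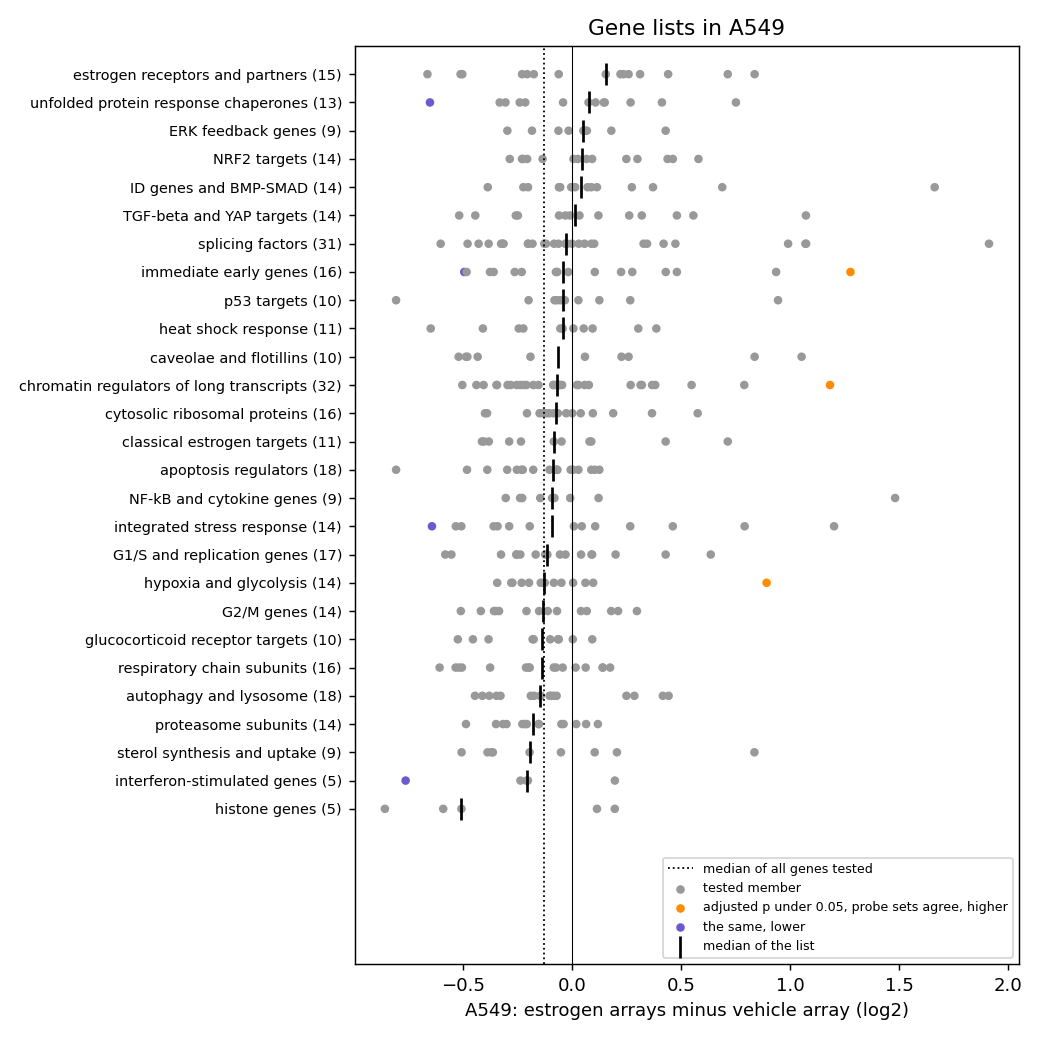
Difference of the estrogen arrays from the vehicle array in A549 (log2 scale) for each tested member (points) of the gene lists with 5 or more tested members, the number tested in parentheses, with the list median (bars) and the median of all genes tested at -0.13 (dotted line). Coloured points are members past the limma threshold whose arrays and probe sets agree, such as ZFP36L1 at 1.28 and ISG20 at -0.76.

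HTB-182 has its own vehicle array, so its differences do not share the A549 vehicle. Of the same 5934 genes 0 were at least 1.5-fold higher in HTB-182 (0%) and 2 lower (0.0337%) by the same rule without a test. Of the 70 genes higher in A549, 29 were above 0 in HTB-182 (41.4%, against 52.7% of all genes), with a median of -0.01, and of the 92 lower genes 29 were below 0 (31.5%, against 47.3% of all genes), with a median of 0.06. Of these genes 0 moved 1.5-fold the same way. In HTB-182 the opposite sign was thus more frequent in both groups than over all genes. NCAPG in HTB-182 read 892 on the vehicle array and 832 to 885 on the estrogen arrays, a difference of -0.05. NSUN5 read 503 against 453 to 533, a difference of 0.00. In the 19 genes higher in every A549 probe set the HTB-182 difference ran from -0.18 (SCOC) to 0.28 (RBM3), and in the 33 lower ones from -0.36 (MRPL4) to 0.18 (SCAND1). RBM3 and MRPL4 were the ones that went farthest in the same direction in both lines. The filter used the A549 arrays alone, so some of these genes were dim in HTB-182. There COL5A2 read 6.10 to 8.84, SEMA3A 5.74 to 7.31, CAMK1D 11.1 to 14.5 and CAVIN1 15.9 to 19.7. All of these lie under the minimum of 20, where the added 16 makes differences smaller, so small HTB-182 differences do not show a lack of response.

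The difference between the lines was tested as an interaction over all 10 arrays. The response was higher in A549 for 159 genes (2.68%) and lower for 124 (2.09%) past limma's adjusted threshold, and 1486 had an unadjusted p under 0.05. NCAPG responded by 2.32 more in A549 (adjusted p = 1.65e-05), MRPL50 by 1.84 (adjusted p = 0.00419), FGB by 1.33 (adjusted p = 0.00279) and ZFP36L1 by 1.32 (adjusted p = 0.00345). SCAND1 differed by -1.18 (adjusted p = 0.00853) and NSUN5 by -1.09 (adjusted p = 0.00619). For RBM3 the difference of 0.33 missed the threshold (adjusted p = 0.284). FGB read 7.60 to 11.5 in HTB-182, too dim for a response there to be seen. Each line has 1 vehicle array, and both are fitted exactly, so the spread of this test also comes from the estrogen arrays alone. Without the E2 array of A549 the counts were 420 and 1031, and the lower count was 71 without the E2-BSA array and 55 without the E2-BSA with tamoxifen array.

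**Figure D5:**
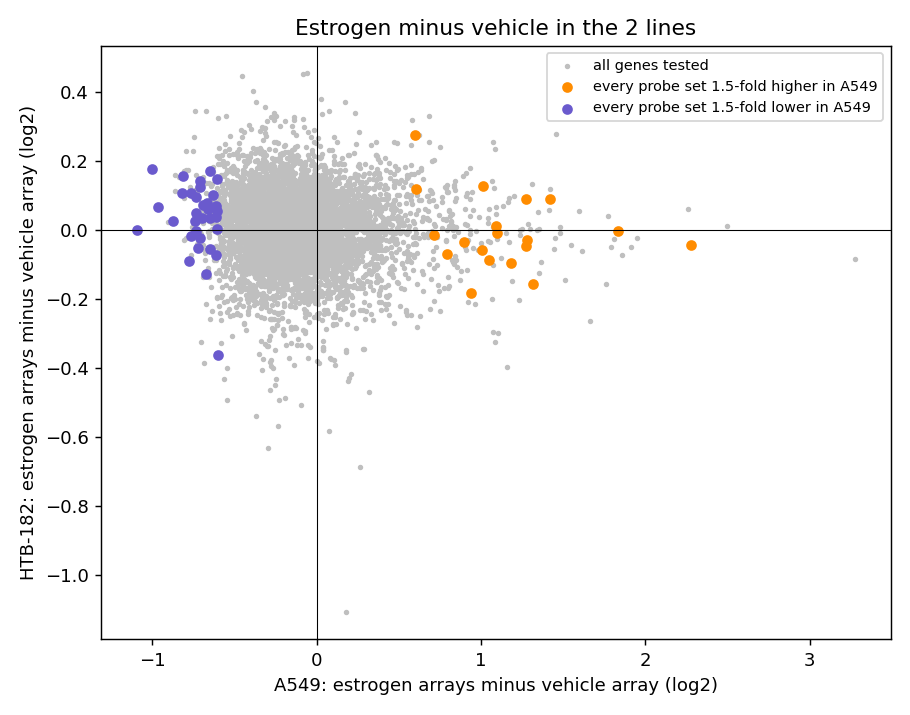
Estrogen minus vehicle difference (log2 scale) in HTB-182 against that in A549 for the 5934 genes tested (grey), with the genes whose every probe set was 1.5-fold higher (orange, 19) or lower (violet, 33) in A549. The coloured genes spread from -1.09 to 2.28 along the A549 axis and from -0.36 to 0.28 along the HTB-182 axis.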

How the data were processed

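Members and gene lists were chosen with earlier results of these data known. The authors deposited 1 table of linear intensity values, made with MAS5 per the submitters' processing notes. For MAS5 no version or scaling target is known here (not given in the sources used here). Of 54675 probe sets, 62 controls were left out, 41091 named 1 gene in the platform annotation (41037 matched RefSeq, with 0 symbol changes), 1801 named several and 11721 none. All columns were mapped from the labels. Gene values were medians over usable probe sets of log2(intensity + 16), so differences are smaller than the true ones for dim genes. Estrogen minus vehicle was fitted on the 5 A549 arrays in R 4.3.3 with limma 3.58.1 (intensity trend, 3 residual degrees of freedom, Benjamini-Hochberg over 5934 genes, threshold 0.05), and the interaction on all 10. The fit was tested on simulated data in which the vehicle array varied like the estrogen arrays, so this could not test that assumption. Each vehicle arm is 1 array. The number of arrays limits precision. Named genes were the 12 largest in each direction past the threshold with agreeing arrays and probe sets, 6 in each direction for the interaction, 4 per list and 10 genes always given. Others were chosen after their values were seen. Promoters came from RefSeq (GRCh38.p14). Alternatives covered the pseudocount, filter, probe set summary, scaling, model and left-out arrays.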

Additional observations from a re-analysis of the deposited data

Results flagged for a closer look

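The 12 genes named here had the largest differences in estrogen response between the lines, 6 in each direction, among those past limma's interaction test (A549 response minus HTB-182 response, log2 scale, adjusted p under 0.05). It was higher in A549 for TIMM17A by 3.36, GFM1 by 2.49, NCAPG by 2.32, HIGD1A by 2.20, RAB7A by 1.97 and SON by 1.96. Of these, NCAPG is the one whose A549 probe sets all had 1 sign. TIMM17A, of the mitochondrial import machinery, read 68.2 on the A549 vehicle array and 770.5 to 850 on the estrogen arrays, a value that 1 probe set at 3.27 set, as the other 2 were at -0.16 and 0.00. The response was lower in A549 for SCAND1 (-1.18), NSUN5 (-1.09), B9D1 (-1.08), NSUN5P1 (-1.04), MRPL41 (-1.02) and CTTN (-1.02), and MRPL41 had a probe set at 0.34, which read 13.6 to 26.7, while its bright ones were at -0.86 and -0.60.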

How the results depend on the processing

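All values below are counts of genes, or, for limma with agreeing probe sets, percentages of the genes tested, higher then lower where both are given. Every alternative was planned except centring on the median gene, which was chosen after seeing the data. The rule that every probe set pass 1.5-fold was also chosen after seeing the data. As reported, the counts were 152 and 105 by limma, 1.18% and 1.55% by limma with agreeing probe sets, 105 and 129 by the 1.5-fold rule, 19 and 33 with every probe set past 1.5-fold, and 159 and 124 for the interaction. Counts not listed stayed within 1.5 times of these. A pseudocount of 1 gave 342 lower by the 1.5-fold rule and 29 and 79 for every probe set, and one of 64 gave 67 and 24, and 11 and 5. A minimum intensity of 10 gave 12 higher for every probe set. A minimum of 50 gave 57 lower by limma. No minimum gave 344 lower by limma, 0.646% and 2.38% with agreement, 215 for the interaction, and 9 higher for every probe set. At least 3 probe sets, with fewer genes tested, gave 59 and 22 by limma, 0.646% and 0.565% with agreement, 34 and 62 by fold, 2 and 6 for every probe set, and 70 and 38 for the interaction. The mean over probe sets gave 240 lower by limma, 1.87% and 4.01% with agreement, and 226 lower for the interaction. The brightest probe set, with more genes tested and no agreement to ask for, gave 377 and 371 by limma, 2.7% lower with agreement, 374 and 779 by fold, 282 and 566 for every probe set, and 365 and 502 for the interaction. Leaving out probe sets that may match several transcripts or genes, by their suffix, with fewer genes tested, gave 86 higher by limma, 59 and 38 by fold, 6 and 12 for every probe set, and 78 and 62 for the interaction. Quantile normalization gave 253 higher by limma, 2.54% higher with agreement, 184 and 40 by fold, 29 and 14 for every probe set, and 259 higher for the interaction. Median scaling gave 265 and 14 by limma, 3.2% and 0.152% with agreement, 268 and 12 by fold, 40 and 5 for every probe set, and 31 lower for the interaction. Centring gave 230 higher by limma, 2.24% higher with agreement, 177 and 40 by fold, and 32 and 14 for every probe set. The 2 arrays without tamoxifen gave 101 and 26 by limma, 0.337% lower with agreement, 79 lower by fold, 17 lower for every probe set, and 8 and 0 for the interaction (limma, 587 at an unadjusted p under 0.05). The 2 with tamoxifen gave 531 and 1249 by limma, 4.2% and 16.8% with agreement, 237 lower by fold, 62 lower for every probe set, and 324 lower for the interaction. All 10 arrays in 1 fit gave 430 and 930 by limma and 3.49% and 13.2% with agreement, and estrogen form and tamoxifen as covariates gave 355 and 679, and 2.8% and 9.25%. A 2-fold rule gave 32 and 2, and 1.5-fold with no condition on probe sets 224 higher. Leaving out each estrogen array in turn gave 57 to 576 higher and 2 to 1694 lower by limma, 0.388% to 4.42% higher and 0.0169% to 22.9% lower with agreement, 105 to 114 higher and 86 to 249 lower by fold, 16 to 22 higher and 18 to 62 lower for every probe set, and 114 to 420 higher and 55 to 1031 lower for the interaction. The vehicle array cannot be left out, since no control would remain. The cause of these changes was not tested, other than where the number of genes tested is named.

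Of single genes, PTGR3 turned to 0.20 with no minimum intensity. In the interaction, MRPL41 was 0.14 and RAB7A -0.41 at a minimum of 10, MRPL41 0.14 and RAB7A -0.30 with no minimum, and TIMM17A -0.046 by its brightest probe set. The 12 rises and 12 falls named in the text were still called in 419 combinations of gene and setting, not called in 81 and turned in 1. NCAPG, MRPL50, FGB, PPTC7 and NSUN5 were called in every setting that tested them. No paired analysis was possible because each group holds 1 array. Dim genes are limited by the pseudocount and by the filter, which admits readings near 20.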
